A study of Mus musculus with 30 samples.

Results

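The genes described here build cilia and flagella. They are the mouse genes whose symbols begin with Ift, Bbs, Dnah, Dnai or Tekt followed by a digit, or with Rsph, taken from array probe sets that carry a single gene symbol. A gene was represented by its probe set with the highest mean over all 30 arrays, which left 39 genes among the 17097 genes measured. No gene of the Dnai group, the dynein intermediate chains, was among them. The 39 genes fell into 7 classes: 3 genes of intraflagellar transport complex A, 11 of complex B, 8 Bardet-Biedl syndrome (BBS) genes, 5 heavy chains of the outer dynein arm, 5 other axonemal dynein heavy chains, 2 tektins and 5 radial spoke proteins.

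The study compared mice without Clpp, the proteolytic subunit of a protease of the mitochondrial matrix, with their wild-type littermates, all on a C57BL/6 background. Total RNA of testis, brain, liver, skeletal muscle and heart was hybridised to 30 Affymetrix expression arrays, 3 for each tissue in each genotype and so 10 groups. The ages of the mice are not given in the sources used here, nor is it stated whether the 3 arrays of a group came from separate animals, so a p-value measures only the spread between these samples. Values are log2 expression levels, on which a difference of 1 is a 2-fold difference, and the precision is limited by having 3 arrays in a group.

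A cilium is a hair-like extension built around microtubule doublets, the axoneme. Intraflagellar transport (IFT) trains carry its building blocks, complex B mainly towards the tip and complex A back to the base, and the BBSome, a coat-like complex that rides on these trains, moves membrane proteins. A non-motile primary cilium, present on most cells, needs only this transport machinery. A motile cilium or a sperm tail also carries dynein arms, whose heavy chains are the motors, radial spokes that control them and tektins that run inside the doublets. In the testis the sperm tail is assembled in spermatids, after meiosis, and in the brain motile cilia line the ventricles on ependymal cells and cover the choroid plexus.

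Clpp itself measured at most 3.99 on the 15 arrays labelled knockout (lowest 2.93) and at least 5.88 on the 15 labelled wild type (highest 9.21), so its level followed the label on every array. Array medians were 3.24 to 3.38, and a group mean under 4 is called near background here. Markers of neurons, hepatocytes, skeletal muscle fibres and cardiomyocytes were highest in the tissues labelled brain, liver, muscle and heart, and spermatid markers in testis. The heart arrays were uneven in the 5 cardiomyocyte markers. Their means were 8.48, 12.8 and 12.9 in the knockout and 8.90, 9.08 and 10.2 in wild type. Replicate 3 of wild-type testis stood apart in carrying epididymis transcripts, with a mean of 9.61 over 5 marker genes against 2.63 to 3.22 on the other testis arrays. Replicate 1 of wild-type muscle carried spermatid transcripts, with a mean of 5.27 over 15 marker genes against 2.74 to 2.94 on the other muscle arrays. Replicate 3 of wild-type brain was low in choroid plexus markers, with a mean of 4.23 over 10 genes against 5.55 to 6.20 on the other brain arrays.

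In the wild-type animals these genes were testis genes above all. Compared with the mean of wild-type brain, liver, muscle and heart, 36 of the 39 were higher in testis and 0 were lower (limma, adjusted p below 0.05, two-sided). Over all genes 32.1% were higher and 40.7% lower in the same comparison, and the median difference was 3.27 for the 39 genes against -0.10 for all genes. In whole tissues, fewer cells of a type and less RNA per cell cannot be told apart. Testis was the wild-type tissue with the highest mean for 32 of the 39 genes, against 27.9% of all genes. For 31 every wild-type testis array lay above every array of the other wild-type tissues, against 21% of all genes.

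The classes differed in how far testis stood above the other tissues. The tektins had a median difference of 7.44, the radial spoke proteins of 5.46 and the dynein heavy chains outside the outer arm of 4.77. The transport complexes had medians of 3.91 (complex A) and 2.99 (complex B), and the BBS genes of 2.30. The outer arm heavy chains had a median of 0.21, because Dnah5, Dnah11 and Dnah17 were near background in testis on these probe sets. Of that class, Dnah8 was higher in testis by 8.02 ± 0.10 (SE) and Dnah9 by 1.95 ± 0.15, both lower bounds, since the other tissues were near background. Dnah5 was also called, with a difference of 0.21 ± 0.08 (adjusted p = 0.0193) between levels near background. This call was lost with only the arrays compared (adjusted p = 0.0509), with array weights (adjusted p = 0.0504) and without replicate 2 of wild-type testis (adjusted p = 0.179). No call was made for Dnah11, Dnah17 or the spoke-head gene Rsph4a.

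The largest differences belonged to genes of the motile apparatus that were dim or near background elsewhere. Where all other tissues had means under 4, as for Tekt2, Dnah2, Dnah12 and Dnah6, the difference is a lower bound. Rsph1, a radial spoke protein, was 8.45 ± 0.27 higher in wild-type testis (adjusted p = 7.04e-20), with a testis mean of 12.2 against 3.80 over the other tissues. The difference for Tekt2, a tektin of the doublet lumen, was 8.11 ± 0.22, with means of 10.9 and 2.79. The other tektin, Tekt1, was 6.78 ± 0.19 higher. In wild-type muscle, which includes the array with spermatid transcripts, Rsph1 had a mean of 4.59 and Tekt1 of 4.65. Among the heavy chains of the inner arms, Dnah2 was 5.88 ± 0.10 higher, Dnah12 5.71 ± 0.10 higher and Dnah6 4.77 ± 0.12 higher. All 5 of these inner arm heavy chains had means under 4 in every other wild-type tissue, as did 4 of the outer arm heavy chains and 3 of the radial spoke proteins. Averaging the probe sets of a gene instead gave 4.15 for Dnah8, 2.88 for Dnah2, 1.55 for Bbs7 and 0.89 for Dnah9, whose second probe sets had means of 2.60 to 2.82 over the 30 arrays.

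The transport genes named here were expressed in other tissues as well. Of these, Ift22 was near background in wild-type liver (3.77) and muscle (3.93), and Bbs9 in wild-type liver (3.87), so their differences are in part lower bounds. Ift140, a complex A protein, had a mean of 9.81 in wild-type testis and 4.82 over the other 4 tissues, a difference of 4.98 ± 0.15 (adjusted p = 1.83e-20). Among the complex B genes the differences were 4.70 ± 0.12 for Ift172, 4.65 ± 0.16 for Ift74 and 4.45 ± 0.13 for the GTPase gene Ift22. Of the BBSome subunits, Bbs5 was 4.57 ± 0.14, Bbs7 3.27 ± 0.15 and Bbs9 2.85 ± 0.12 higher in testis.

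A few genes had their highest wild-type mean outside the testis. Ift20, which also acts at the Golgi, measured 8.65, 8.66 and 8.71 in liver and 8.22, 8.37 and 8.54 in testis, so the liver arrays lay just above the testis arrays without overlap. Ift81 measured 8.85, 8.93 and 9.18 in heart against 7.35, 7.51 and 7.73 in testis, and 3.27 to 4.11 in muscle and liver. Bbs4, a BBSome subunit, was highest in brain, at 6.82, 6.93 and 7.16, above 5.77, 5.96 and 6.31 in testis. Bbs1 was at a like level in testis (6.14, 6.43 and 6.47) and brain (5.76, 5.97 and 6.39), with overlapping arrays, and near background in liver, muscle and heart. Bbs12, Dnah5, Dnah17 and Rsph4a had means under 4 in all 10 groups.

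**Figure D1:**
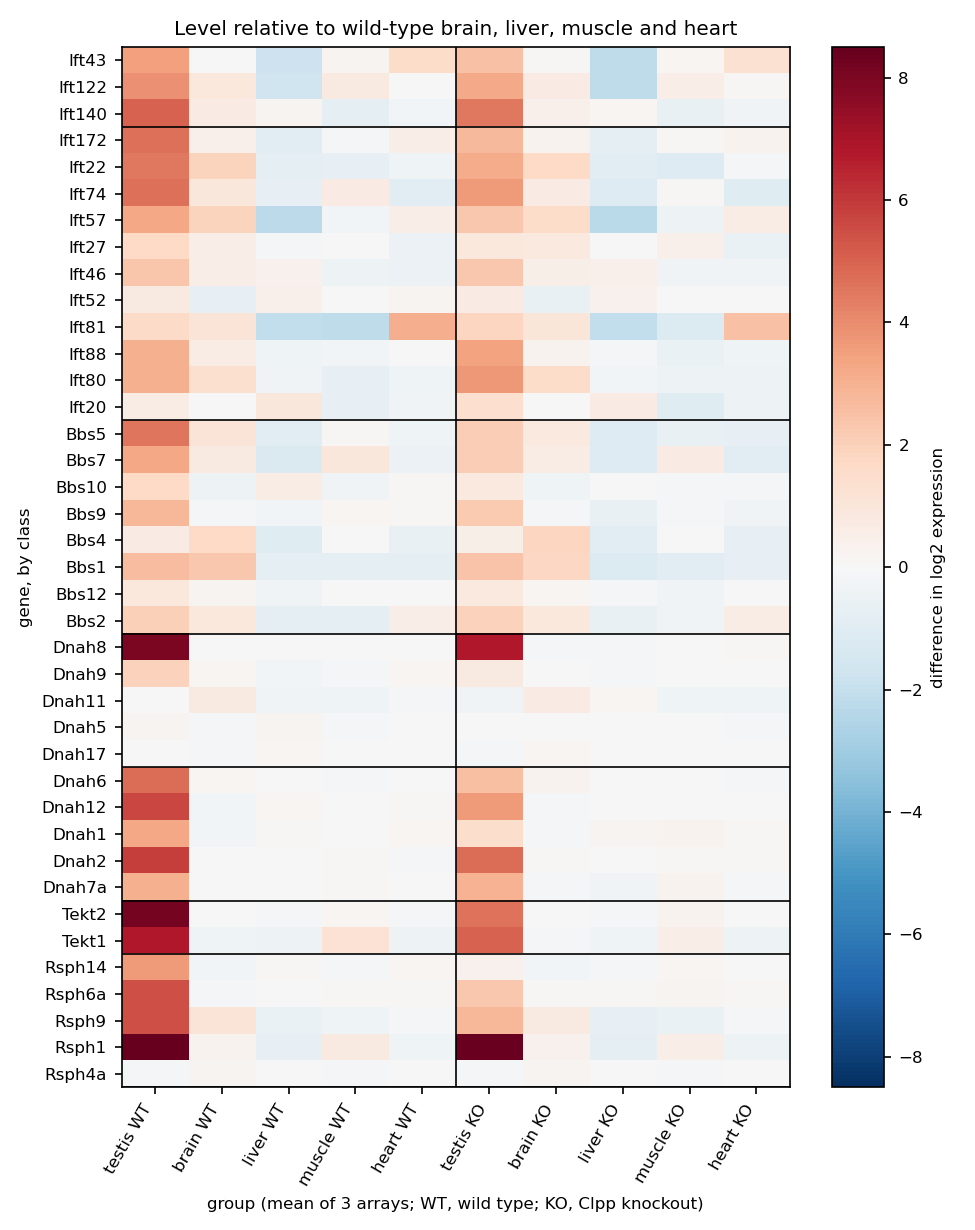
Mean log2 expression of each of the 39 genes (rows, by class) in the 10 groups (columns, 3 arrays each), as the difference from that gene's own mean over wild-type brain, liver, muscle and heart (colour scale in log2 units). The wild-type testis column is the darkest for most rows, up to 8.45 for Rsph1, and the knockout testis column is paler for most genes but not for Rsph1.

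Brain was set against wild-type liver, muscle and heart. In this comparison 20 of the 39 genes were higher in brain and 6 lower, where over all genes 27.3% were higher and 39.9% lower, and the median difference was 0.35 against -0.16 for all genes. Genes of the transport machinery made up most of the 20, with 9 of 11 complex B genes, 2 of 3 complex A genes and 6 of 8 BBS genes higher. Bbs1, a core BBSome subunit, was 3.06 ± 0.13 higher (adjusted p = 5.68e-17), Ift22 2.53 ± 0.13, Ift57 2.49 ± 0.14, Bbs4 2.24 ± 0.12 and Ift80 1.80 ± 0.15. Ift52 was lower in brain by 0.92 on the log2 scale (SE 0.09), and Bbs10, a chaperonin-like BBS protein, was lower with a difference of -0.58 ± 0.14. The value for Bbs1, near background in the other tissues, is a lower bound, as is the size of that for Bbs10, near background in brain. With the mean of probe sets the differences were 1.17 for Ift57 and 1.18 for Ift80.

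Genes of the motile apparatus gave little signal in the brain samples. All 5 inner arm heavy chains, 4 of 5 outer arm heavy chains, both tektins and 3 of 5 radial spoke genes had means under 4 in both brain groups. Rsph9, a spoke-head protein, was an exception, at 4.73, 4.92 and 5.65 on the wild-type brain arrays, 1.49 ± 0.20 above the other tissues. Dnah11, the outer arm heavy chain near the base of motile cilia, measured 3.65, 4.98 and 5.11, a difference of 0.99 ± 0.20 (adjusted p = 0.000113). For Rsph9 and Dnah11 the other tissues were near background, so these are lower bounds. The low Dnah11 value was on replicate 3, the array low in choroid plexus markers, and without that array the difference was 1.46 and the number of genes lower in brain 2 in place of 6. Foxj1, the master regulator of motile cilia, lay at 2.90 to 3.35 on the 6 brain arrays, near background.

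Most of these genes were lower in the testis of mice without Clpp. In knockout against wild-type testis, 23 of the 39 fell, 3 rose and 13 were not called (limma, adjusted p below 0.05). Over all genes 23.4% fell and 32.8% rose, and the median difference was -0.80 for the 39 genes against 0.02 for all genes. Of the 23 that fell, 18 fell by at least 1 and 7 by at least 2 on the log2 scale. The knockout arrays all lay below the wild-type arrays for 24 of the 39 genes, against 28.2% of all genes, and all above them for 3, against 35.3% of all genes. Among the 28 members with a mean of at least 6 over the testis arrays, 19 fell and 3 rose, while 31.1% of all genes with such a mean fell and 50.2% rose. Restricting the test to genes above the median of all means left 22 members, of which 13 fell.

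The falls went with a change in the cell markers of the testis, in a comparison where 23.4% of all genes fell and 32.8% rose. Of 15 genes of round and elongating spermatids 14 fell and 0 rose, with a median of -4.53, and their mean level was 6.69 to 7.86 on the knockout arrays against 11.3 to 11.7 on the wild-type arrays. All 11 Sertoli cell markers and all 6 Leydig cell markers rose, with medians of 1.89 and 1.62, as did 7 of 9 spermatogonial markers (median 1.72). Of 9 markers of pachytene spermatocytes 4 rose and 4 fell. This list includes Spag6, which is also a central pair gene of the axoneme and fell. The part of these shifts in the values of the cilium genes was not tested. Without replicate 3 of wild-type testis, the array with epididymis transcripts, 23 cilium genes fell and 2 rose.

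The tektins, filament proteins within the microtubule doublets, both fell. Tekt2 measured 10.71, 10.95 and 11.04 on the wild-type arrays and 6.67, 7.21 and 8.33 on the knockout arrays. Every knockout array was more than 2 units below every wild-type array, and the difference was -3.50 ± 0.28 (SE; adjusted p = 6.15e-11). Tekt1 measured 9.99, 10.2 and 10.4 against 8.07, 8.62 and 8.63, again without overlap, a difference of -1.76 ± 0.25 (adjusted p = 8.62e-07).

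The radial spoke proteins split. Rsph14 measured 5.99, 6.39 and 6.90 in wild-type testis and 2.94, 3.23 and 3.301 in knockout testis, where it was near background. The fall of 3.27 (a difference of -3.27 ± 0.16, adjusted p = 3.35e-15) is therefore a lower bound. Rsph6a, a spoke-head protein of the sperm tail, stood at 7.95, 8.12 and 8.29 in wild type and at 4.22, 5.06 and 5.54 in the knockout, a difference of -3.18 ± 0.22 (adjusted p = 2.39e-12). Rsph9 went from 9.33, 9.45 and 9.54 to 6.47, 6.56 and 7.43, a difference of -2.62 ± 0.24. Rsph1, which had the largest difference between wild-type testis and the other tissues, was not called. It measured 12.2, 12.2 and 12.3 on the wild-type arrays and 12.1, 12.2 and 12.3 on the knockout arrays, a difference of -0.03 ± 0.34 with a 95% confidence interval from -0.74 to 0.68. The interval is wide because the model shares its spread over all 10 groups. The SD of Rsph1 was 1.26 in wild-type muscle, which includes the array with spermatid transcripts, and 0.08 in either testis group. Rsph4a, the spoke-head protein of multiciliated cells, was near background in both genotypes.

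Of the dynein heavy chains outside the outer arm, 4 of 5 fell. Dnah6, a heavy chain of the inner arms, measured 7.24, 7.29 and 7.50 in wild type and 4.79, 5.08 and 5.49 in the knockout, a difference of -2.22 ± 0.15 (adjusted p = 2.05e-12). Dnah12 went from 8.04, 8.19 and 8.41 to 5.92, 6.06 and 6.44, a difference of -2.08 ± 0.12. Dnah1, an inner arm chain needed for the sperm tail, went from 5.28, 5.92 and 6.00 to 3.63, 3.76 and 4.33, a difference of -1.83 ± 0.19 that is a lower bound. In each of these genes the 3 knockout arrays lay below the 3 wild-type arrays. Dnah2 differed by -1.11 ± 0.13. Dnah7a measured 5.65 to 6.13 in wild type and 5.52 to 6.21 in the knockout, with overlapping arrays and a difference of -0.04 ± 0.17.

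In the outer arm class, Dnah8 and Dnah9 fell and the other 3 genes were near background in both genotypes. Dnah8, an outer arm heavy chain of the sperm tail, measured 10.6, 10.7 and 10.8 in wild type and 9.23, 9.37 and 9.81 in the knockout. The groups did not overlap, and the difference was -1.22 ± 0.13 (adjusted p = 6.79e-09). Dnah9, an outer arm chain of airway-type cilia, was dim, at 4.504, 4.66 and 5.12 against 3.11, 3.78 and 3.86, a difference of -1.18 ± 0.19 that is a lower bound. Averaging the probe sets of a gene gave -0.66 for Dnah8 and -0.56 for Dnah9.

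All 3 genes of complex A, the carrier of retrograde transport, that have an Ift symbol fell. The complex as a whole did not fall uniformly. Of its subunits without an Ift symbol, Wdr19 rose, with a difference of 0.39 ± 0.16 (adjusted p = 0.0388). Wdr35 and Ttc21b were not called, with differences of 0.016 and -0.029. Ift43 measured 10.1, 10.1 and 10.4 in wild type and 8.93, 9.19 and 9.47 in the knockout, a difference of -1.02 ± 0.15 (adjusted p = 2.30e-06). Ift122 went from 9.47, 9.62 and 9.91 to 8.82, 8.99 and 9.10, a difference of -0.69 ± 0.23 (adjusted p = 0.0119). Ift140 went from 9.68, 9.77 and 9.97 to 8.98, 9.37 and 9.48, a difference of -0.53 ± 0.19 (adjusted p = 0.0195). The arrays did not overlap in Ift43, Ift122 or Ift140. The Ift122 call was lost without replicate 2 of wild type (adjusted p = 0.0656), while its second probe set differed by -1.19. The Ift140 call was lost without replicate 2 of the knockout (adjusted p = 0.132) or replicate 1 of wild type (adjusted p = 0.0831) and after a second quantile normalization (adjusted p = 0.0613).

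Among the classes as chosen by symbol, only complex B had genes called in both directions, though Wdr19, a complex A gene outside them, rose. In the complex B class 5 of 11 genes were lower, 3 higher and 3 not called. Ift172, a large subunit of the complex, measured 10.5, 10.7 and 10.9 in wild type and 8.507, 8.666 and 8.999 in the knockout, a difference of -1.96 ± 0.16 (adjusted p = 4.75e-11). Ift22 went from 8.95, 9.01 and 9.24 to 7.63, 7.80 and 7.93, a difference of -1.28 ± 0.16. Ift74, which binds tubulin together with Ift81, went from 10.1, 10.3 and 10.5 to 8.96, 9.21 and 9.62, a difference of -1.04 ± 0.20. In all 3 genes every knockout array was below every wild-type array. Ift57 and Ift27 also fell, with differences of -1.02 ± 0.17 and -0.80 ± 0.23. Ift46, Ift52 and Ift81 were not called, with differences of -0.11 to 0.20 and confidence intervals between -0.38 and 0.64.

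The 3 genes of these classes that rose all belonged to complex B. Ift20 measured 8.22, 8.37 and 8.54 in wild type and 9.14, 9.16 and 9.19 in the knockout. All knockout arrays were higher, and the difference was 0.79 ± 0.14 (adjusted p = 1.88e-05). Ift80 measured 7.56, 7.60 and 7.66 against 8.14, 8.15 and 8.53, a difference of 0.66 ± 0.18 (adjusted p = 0.00301). The second, dimmer probe set of Ift80 went the other way, with a difference of -0.69, and the mean of both probe sets differed by -0.013 (adjusted p = 0.947), so the direction for this gene depends on the probe set. Ift88, the complex B subunit mutated in the classical polycystic kidney mouse, measured 6.98, 7.16 and 7.33 against 7.45, 7.65 and 7.66, a difference of 0.43 ± 0.17 (adjusted p = 0.0364). This call was lost when any of 4 of the 6 testis arrays was left out (replicates 2 and 3 of either genotype, adjusted p up to 0.144), after a second quantile normalization (adjusted p = 0.0566) and with array weights (adjusted p = 0.0902).

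Of the BBS genes 4 of 8 fell and 0 rose. Bbs5, a BBSome subunit that binds membrane lipids, measured 9.60, 9.62 and 9.70 in wild type and 6.98, 6.99 and 7.53 in the knockout. This wide gap gave a difference of -2.47 ± 0.18 (adjusted p = 1.08e-11). Bbs7 went from 8.46, 8.58 and 8.61 to 6.94, 7.38 and 7.74, a difference of -1.20 ± 0.19, or -0.50 when its 2 probe sets were averaged. Bbs10 went from 5.22, 5.55 and 5.69 to 4.24, 4.69 and 4.90, a difference of -0.88 ± 0.17, and Bbs9 differed by -0.59 ± 0.16. The arrays of these genes did not overlap. Bbs1, Bbs2, Bbs4 and Bbs12 were not called and their arrays overlapped. Bbs2, another core BBSome subunit, measured 7.10, 7.19 and 7.38 in wild type and 7.18, 7.20 and 7.23 in the knockout, a difference of -0.02 ± 0.20 with a confidence interval from -0.43 to 0.39.

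**Figure D2:**
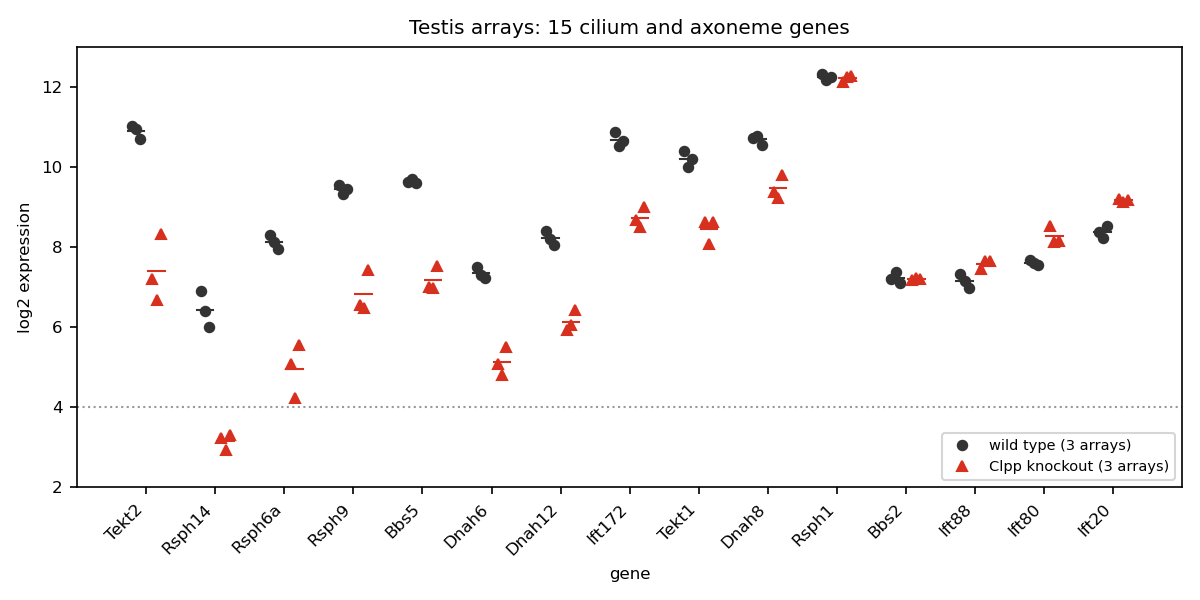
Log2 expression of 15 of the genes on the 6 testis arrays (circles, wild type; triangles, Clpp knockout; short lines, group means of 3 arrays; dotted line, the level of 4 under which a group mean is called near background). The knockout arrays lie below the wild-type arrays for Tekt2 to Dnah8, coincide with them at about 12.2 for Rsph1 and 7.20 for Bbs2, and lie above them for Ift88, Ift80 and Ift20.

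RefSeq promoter windows (GRCm38.p6, 300 bases around each start site) were matched by Entrez gene identifier for 34 of the 39 genes, in 38 windows. They were searched on both strands for GTTGCC, the core of the sites of RFX factors, which are regulators of cilium genes. It occurred in 12 of the 38 windows (31.6%) and in 4111 of all 32851 windows (12.5%). By gene it was found for 11 of 34 members (32.4%) and for 3821 of all 27025 genes (14.1%). Among the members, GTTGCC was found for 8 of 22 that fell, 1 of 2 that rose and 2 of 10 that were not called. Both tektins and 5 of 11 Ift genes held it, against 0 of 3 Rsph genes and 1 of 10 Dnah genes. Stretches upstream of the start are printed for genes with different testis results: the tektins, Ift57, Bbs7 and Ift140, which fell, and Dnah7a, which was not called. Each is given 5′ to 3′ on the gene's strand, with GTTGCC or its reverse complement GGCAAC in capitals.
Tekt2 (chr4:126325752-126325811, minus strand): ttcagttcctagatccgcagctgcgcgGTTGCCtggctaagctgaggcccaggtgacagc
Tekt1 (chr11:72361885-72361944, minus strand): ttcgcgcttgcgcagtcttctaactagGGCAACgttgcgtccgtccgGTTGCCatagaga
Ift57 (chr16:49699207-49699266, plus strand): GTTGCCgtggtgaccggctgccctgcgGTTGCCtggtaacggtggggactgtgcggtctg
Bbs7 (chr3:36613478-36613537, minus strand): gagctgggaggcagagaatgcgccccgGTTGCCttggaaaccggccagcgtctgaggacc
Ift140 (chr17:25015950-25016009, plus strand): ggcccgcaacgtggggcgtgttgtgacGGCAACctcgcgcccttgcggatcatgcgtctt
Dnah7a (chr1:53706952-53707011, minus strand): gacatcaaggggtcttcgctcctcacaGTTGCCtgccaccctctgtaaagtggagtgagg

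Tekt1 and Ift57 each showed a pair of matches within these 60 bases. The full cyclic AMP response element TGACGTCA, the site of the spermatid factor CREM and its relatives, occurred in the windows of Dnah6 and Ift57, 5.26% of the 38 windows against 1.79% of all windows. The forkhead core GTAAACA occurred in 1 member window, that of Dnah17 (2.63%), against 3.65% of all windows. None of these letter matches is a measured binding site.

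Some regulators of the cilium genes fell in the same testes, though most of those listed were not called. Their part in the values of the cilium genes was not tested. Of 13 transcription factors and cofactors of the ciliary programme 6 fell and 0 rose, with a median difference of -0.27. Over all genes 23.4% fell and 32.8% rose. Rfx3, an RFX factor of ciliated cells, fell from a mean of 6.94 to 3.65 (difference -3.29 ± 0.11, adjusted p = 2.53e-18), and Foxj1 from 5.93 to 2.94 (difference -3.00 ± 0.14), both to near background, so that these are lower bounds. Crem, an activator of spermatid genes, also fell (-2.10 ± 0.16), as did Rfx1 (-1.99 ± 0.24, to near background and so a lower bound) and Rfx2, an RFX factor of spermatids (-1.02 ± 0.14).

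Other parts of the axoneme were read from lists of further genes. The counts of each list stand beside 23.4% of all genes that fell in testis and 32.8% that rose. Of 19 central pair and spoke partner genes 18 fell and 0 rose, with a median of -2.01, led by Dydc2 (-5.18 ± 0.17, to near background and so a lower bound), Spag6 (-3.94 ± 0.28) and Dydc1 (-3.60 ± 0.20). Spag6 has a near-identical copy, Spag6l, so its signal may be shared. Of 12 dynein light chain and docking genes 10 fell and 0 rose (median -2.29). Tctex1d1 of this list differed by -5.04 ± 0.23, Ccdc63, a docking protein of the sperm tail, by -4.22 ± 0.30, and Dnali1, an inner arm light intermediate chain, by -3.03 ± 0.17.

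Genes that assemble and space the arms fell as well. Of 14 dynein arm assembly factors 11 fell and 0 rose (median -0.98), among them Ccdc103 (-2.45 ± 0.21), Dnaaf1 (-1.70 ± 0.34) and Lrrc6 (-1.47 ± 0.13). Of 10 genes of the nexin links and the axonemal ruler 8 fell and 1 rose (median -1.35). Tcte1 (-2.73 ± 0.18), Ccdc40 (-2.63 ± 0.16) and Ccdc65 (-2.44 ± 0.17) fell, and Iqcg rose by 0.85 ± 0.16.

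The further genes of transport and of the ciliary base had medians near that of all genes and changes in both directions. Of 18 IFT partners and motors 6 fell and 3 rose (median -0.11). This list also holds core subunits of the complexes that lack an Ift symbol, such as Wdr19, Wdr35 and Ttc21b of complex A. Wdr19 was among the 3 that rose, with a difference of 0.39 ± 0.16 (adjusted p = 0.0388). Kif17, a kinesin of germ cells and neurons, fell from 9.37 to 4.57 (difference -4.80 ± 0.22, adjusted p = 1.73e-15), while Tulp3, an adaptor of complex A, rose by 1.15 ± 0.19 from a level near background and Ttc30a1, a complex B subunit, rose by 0.71 ± 0.12. Of 21 BBSome partners and transition zone genes 9 fell and 7 rose (median -0.07). Over all genes 23.4% fell and 32.8% rose, so the 7 that rose were near the share of all genes. Nphp4 (-1.53 ± 0.18), Tctn2 (-1.17 ± 0.16) and Wdpcp (-1.09 ± 0.17) fell, and Trim32 (1.57 ± 0.12), Iqcb1 (1.52 ± 0.27) and Cc2d2a (1.42 ± 0.23, from near background) rose.

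**Figure D3:**
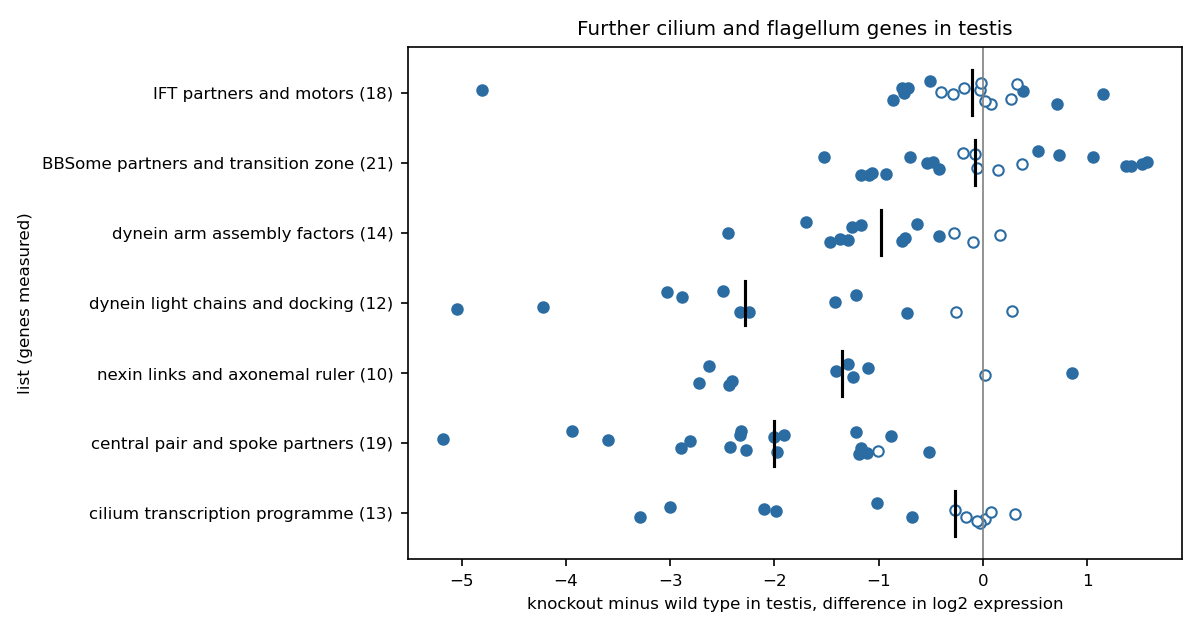
Knockout minus wild-type difference in log2 expression in testis (horizontal axis) for the genes of 7 further lists (rows, number measured in brackets; 3 arrays per genotype). Filled points passed adjusted p below 0.05, open points did not, and the bars mark list medians, which lie between -2.29 and -0.98 for the 4 axoneme lists and near 0 for the transport and transition zone lists.

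The knockout testis still stood above the other tissues. Against the mean of knockout brain, liver, muscle and heart, 35 of the 39 genes were higher in knockout testis and 2 lower, where over all genes 34.1% were higher and 37.8% lower, and the median difference was 2.49. For 27 genes every knockout testis array lay above every array of the other tissues, against 18.5% of all genes. Rsph1 was 8.49 ± 0.27 higher, Dnah8 6.83 ± 0.10, Tekt1 5.09 ± 0.19, Dnah2 4.71 ± 0.10 and Tekt2 4.57 ± 0.22. All but Rsph1 of these were near background in every other knockout tissue, so their differences are lower bounds. With the mean of probe sets the values were 3.48 for Dnah8 and 2.26 for Dnah2. The 2 genes called lower, Dnah17 and Rsph4a, were near background throughout, with differences of -0.19 ± 0.08 and -0.20 ± 0.08, and 1 or both calls were lost without any of 10 single knockout arrays, among them each testis array, and both after a second quantile normalization.

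In the brain none of the 39 genes was called between knockout and wild type (0 higher, 0 lower, limma, adjusted p below 0.05). Over all genes 0.234% were higher and 0.181% lower. At an unadjusted p below 0.05 there were 2 of the 39, Bbs1 and Dnah17, where 7.91% of all genes passed that level. Bbs1 measured 5.76, 5.97 and 6.39 in wild-type brain and 5.31, 5.56 and 5.72 in knockout brain. The knockout arrays were all lower, with a difference of -0.51 ± 0.16 that missed the threshold (adjusted p = 0.273). Dnah17 differed by 0.33 ± 0.10 (adjusted p = 0.266) between levels near background.

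The brain comparison bears mainly on the transport genes, since 16 of the 39 genes were near background in both brain groups. The other 23 had differences between -0.51 and 0.26 with a median of -0.12, and their 95% confidence intervals reached from -0.86 to 0.78. Ift172, for example, measured 6.40, 6.44 and 6.46 in wild type and 6.20, 6.30 and 6.35 in the knockout, a difference of -0.15 with an interval from -0.47 to 0.17. The interval for Ift20 was -0.33 to 0.24 and that for Bbs5 was -0.62 to 0.13. For Rsph9, of the radial spokes, the difference was -0.36 with an interval from -0.86 to 0.14. Of 11 ependymal and 10 choroid plexus markers 0 were called, and leaving out the wild-type brain array low in choroid plexus markers also left 0 of the 39 genes called. The ependymal markers had a mean level of only 3.07 to 3.52 on the 6 brain arrays, near background. A fall in them could hardly have been measured, so their count does not show whether ependymal cells changed. Among the 7 further lists 0 genes were called in brain, a count in which genes near background there were not set apart.

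**Figure D4:**
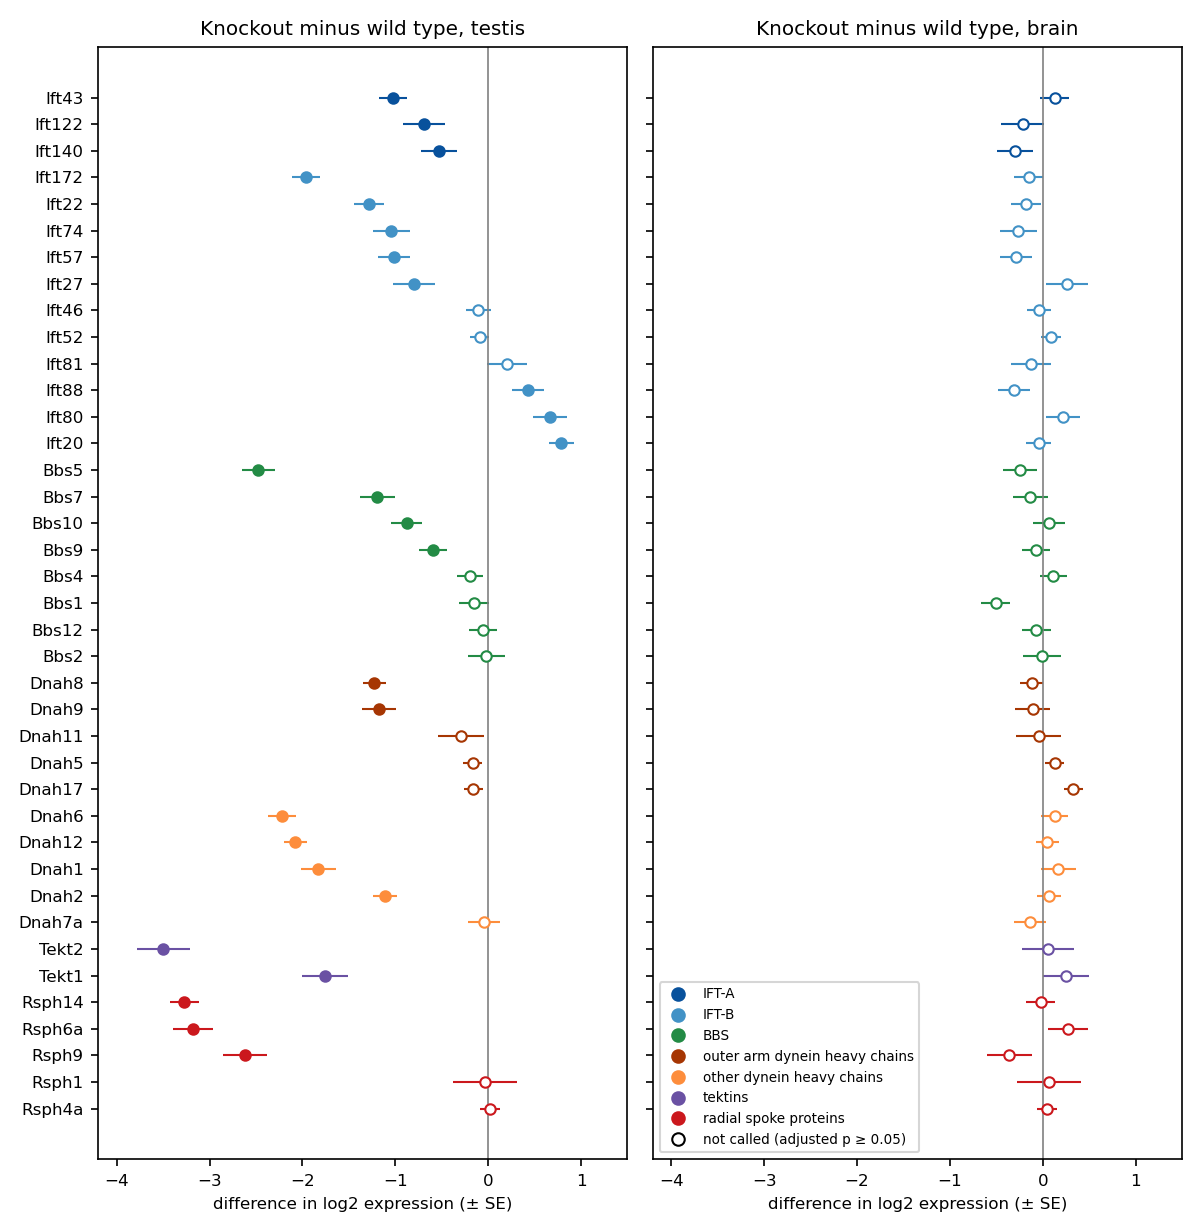
Knockout minus wild-type difference in log2 expression (points, ± SE, from 3 arrays per genotype) for the 39 genes by class, in testis (left) and brain (right), on the same scale. Filled points passed adjusted p below 0.05 and open points did not: testis values reach -3.50 for Tekt2, and no gene is filled in brain, where all lie between -0.51 and 0.33.

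The difference between the testis effect and the brain effect was tested directly. It was lower in testis for 21 of the 39 genes and higher for 2, where over all genes 20.3% were lower and 28.7% higher. By class these were 3 of 5 radial spoke genes, both tektins, 4 of 5 inner arm and 3 of 5 outer arm heavy chains, 5 of 11 complex B, 1 of 3 complex A and 3 of 8 BBS genes. The third outer arm gene was Dnah17 (-0.49), near background in all groups, with an uncalled difference of 0.33 in brain and -0.16 in testis. Rsph14 differed most clearly, by -3.25 ± 0.22 (adjusted p = 8.68e-12), followed by Dnah12 at -2.13 ± 0.18 and Rsph6a at -3.45 ± 0.30. All 3 were near background in brain, where no fall could have been measured. The same limit holds for both tektins, for every inner arm heavy chain called here, and for Dnah8, Dnah9 and Bbs10. Among genes expressed in both tissues, the testis effect was lower by -2.23 for Bbs5 (adjusted p = 7.28e-08) and by -1.81 for Ift172 (adjusted p = 1.70e-07), and higher by 0.83 ± 0.19 for Ift20 (adjusted p = 0.0008) and 0.74 ± 0.24 for Ift88 (adjusted p = 0.0138). The Ift88 value joins a difference of 0.43 in testis and an uncalled -0.31 in brain.

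In the remaining tissues few of these genes were called. In liver 0 of 39 passed (2.42% of all genes in either direction, 6 of the 39 at an unadjusted p below 0.05 against 13.1% of all genes), and in heart 0 of 39 (2.18% of all genes, 5 of the 39 at an unadjusted p below 0.05 against 13.8% of all genes). In muscle 1 gene was lower and 1 higher, where 1.54% of all genes were called in either direction. Bbs5 measured 4.65, 5.28 and 5.66 in wild-type muscle and 4.31, 4.46 and 4.48 in knockout muscle, a difference of -0.78 ± 0.18 (adjusted p = 0.0280). Its highest value was on replicate 1 of wild type, the array with spermatid transcripts, and without that array the difference was -0.55 (adjusted p = 0.185). The call was also lost without replicate 2 of wild type (adjusted p = 0.0712) or any single knockout muscle array (adjusted p 0.0656 to 0.0926), and when the muscle arrays were fitted alone (adjusted p = 0.286). On the same array Tekt1 was at 5.42 and Rsph1 at 6.03, against 3.72 to 4.81 and 3.67 to 4.77 on the other muscle arrays. Ift81 measured 3.27, 3.85 and 4.11 in wild-type muscle and 4.26, 4.497 and 5.38 in knockout muscle, a difference of 0.97 ± 0.21 (adjusted p = 0.0219) from a level near background. That call was lost without replicate 2 of the knockout (adjusted p = 0.131) or of wild type (adjusted p = 0.0941), with the muscle arrays alone (adjusted p = 0.311) and with the replicate number as a block (adjusted p = 0.0978). With the mean of its probe sets the difference was 0.47 (adjusted p = 0.0497).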

How the data were processed

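RNA of 5 tissues and 2 genotypes was measured on 30 arrays, 3 per group. The deposited values are log2 expression per probe set, made by the authors with RMA in R 2.14.0, per the submitters' processing notes; whether all 30 arrays were processed together is not given in the sources used here. No further normalization was applied. Of 45141 probe sets 28898 carried 1 gene symbol, giving 17097 genes, each on its probe set with the highest mean; the 39 genes had 53 probe sets and 11 had several.

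A linear model with 10 group means was fitted to all genes with limma 3.58.1 in R 4.3.3 (lmFit, eBayes), all tests two-sided, with Benjamini-Hochberg adjustment over all genes and calls at adjusted p below 0.05. The method was tested on simulated data. The genes, classes and lists were chosen with earlier results of these data known. Named are, per comparison and class, up to 3 called genes with the largest difference in each direction, every called brain gene, the 3 smallest p in each direction for the difference between tissues, and up to 3 per list; the genes that were not called, Ift57, Ift27, Bbs9 and Dnah2 in testis, Rfx1 and Rfx2, the muscle calls and those outside these rules were added after their values were seen. Alternatives covered normalization, low-value filters, probe set choice, variance prior, array weights, the replicate number as a block and each array left out. Dnah10, Dnah14, Dnah3, Dnah7b, Dnah7c, Rsph3a, Rsph3b, Tekt3, Tekt4 and Tekt5 also fit the symbol rule and were not analysed here.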

Additional observations from a re-analysis of the deposited data

Results flagged for a closer look

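The effect of Clpp loss differed between testis and brain by a direct test of that difference (limma, adjusted p below 0.05): it was lower in testis for 21 of the 39 cilium genes and higher for 2. The clearest were Rsph14 at -3.25, Dnah12 at -2.13 and Rsph6a at -3.45, all near background in brain, and Ift20 at 0.83 and Ift88 at 0.74, both measured in brain. The Ift88 value joins 0.43 in testis, a call lost without any of 4 of the 6 testis arrays, and an uncalled -0.31 in brain. Both tektins, all dynein heavy chains among the 21, and Bbs10 were also near background in brain, where no fall could have been measured. Groups of 3 arrays were too small for a search for outlying arrays within a group.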

How the results depend on the processing

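The number of genes lower in knockout testis was 22 to 23 and of genes higher 2 to 3 when single arrays were left out, and 0 genes were called in brain under every alternative run. Correlations of same-numbered knockout and wild-type arrays were low, from -0.13 to 0.24, with 3 of 15 above 0.1. Between tissues of a genotype they were -0.0025 to 0.12 in wild type and -0.07 to 0.14 in the knockout. They were not set against arrays with different numbers, so whether the numbers pair the samples was not tested. With the replicate number as a block 23 genes fell and 3 rose in testis. In that fit the count lower in knockout testis than in other knockout tissues was 1 and the count higher in muscle was 0. Testing only genes above the median mean left 22 members: 13 lower in knockout testis, 11 with a lower testis than brain effect, 22 higher in wild-type testis, 2 lower in wild-type brain, and 22 higher and 0 lower in knockout testis than in the other tissues. Requiring a group mean of at least 5, or a second quantile normalization, gave 0 lower in knockout testis than elsewhere, against 2. The count lower in wild-type testis was 1, against 0, with median centring, the mean of probe sets or a trended prior. In muscle, fitting only the arrays compared gave 0 higher and 0 lower, and a second quantile normalization or leaving out the 2 arrays with sperm or epididymis transcripts 0 lower; without those 2 arrays the count lower in knockout testis than elsewhere was 1.

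With single arrays left out, the counts ranged over 20 to 22 (testis lower than brain effect), 35 to 36 higher and 0 to 1 lower (wild-type testis), 19 to 21 higher and 2 to 6 lower (wild-type brain), 35 higher and 0 to 2 lower (knockout testis), and 0 to 1 in each direction in muscle. Ift80 in testis reversed to -0.013 with the mean of its probe sets. Of 1934 alternative values for the 87 gene results followed (Bbs5 and Ift81 in muscle were not named by rule), 1865 kept direction and call, 68 lost the call and 1 reversed. Signal over background limited the brain results, with 16 of 39 genes near background there.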
